A study of Mus musculus with 15 samples.

Results

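Described here are 7 genes of the cholesterol pathway that are known targets of the transcription factor SREBP2: Hmgcs1, Idi1, Fdps, Sqle, Lss, Cyp51 and Insig1. They were taken by name from a list, and their values were read by Ensembl identifier or position in each of 15 RNA sequencing libraries of mouse large intestine. All 7 are genes of synthesis or sterol sensing and none is an uptake gene, so uptake genes enter only through a further list. Of the 7, 6 had a value of their own in all 15 libraries and were among the 11496 genes tested. Fdps had no value of its own in any library.

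The libraries form 5 groups of 3, all from male C57Bl/6 mice aged 4 weeks. Cymopol is a bromine-bearing hydroquinone made by the green alga Cymopolia barbata, and it was given at 1.4 mmol/kg (high dose) or 0.3 mmol/kg (low dose). A non-polar (NP) algal extract, which is a mixture and not 1 compound, was given at 1.0 g/kg (high dose) or 0.3 g/kg (low dose). The vehicle was Cremophor EL (spelled Chremophor EL in the labels) with 10% DMSO, and the treated mice received it too. Gavage was repeated on 3 consecutive days with 24 h between treatments, and the intestine was taken 12 h after the last. The replicate numbers used below are those of the labels. Nothing in the labels ties a library to a mouse of its own, so p-values may measure only the spread between these samples.

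Cells make cholesterol from acetyl-CoA through the mevalonate pathway, and the intestinal epithelium both makes sterol and takes it up from the lumen and from lipoproteins. When sterol in the endoplasmic reticulum is low, the escort protein SCAP carries SREBP2 to the Golgi, where proteases free its transcription factor domain, which then switches on nearly every gene of the pathway. When sterol is plentiful, INSIG proteins hold SCAP back and the genes are turned down. Hmgcs1 encodes HMG-CoA synthase, an early enzyme of the pathway. Idi1 and Fdps encode the isomerase and the synthase that build farnesyl diphosphate. Sqle encodes squalene epoxidase, Lss encodes lanosterol synthase, Cyp51 encodes the demethylase that acts on lanosterol, and Insig1 encodes one of the INSIG proteins and is itself an SREBP target.

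SREBP binds sterol regulatory elements beside sites of the cofactors NF-Y, which reads CCAAT, and SP1, which reads GC boxes. The promoters of Hmgcs1, Idi1 and Cyp51 are shown because these 3 members had the smallest p-values in the comparisons with the vehicle. Each runs from 250 bases before to 50 bases after the start site in the RefSeq promoter table (build GRCm38.p6), and capitals mark TCACNCCAC, used as the core of a sterol regulatory element, and CCAAT, either of them on either strand. They lie at chr13:119690101-119690400 (plus strand), chr13:8885356-8885655 (plus strand) and chr5:4104648-4104947 (minus strand).
Hmgcs1: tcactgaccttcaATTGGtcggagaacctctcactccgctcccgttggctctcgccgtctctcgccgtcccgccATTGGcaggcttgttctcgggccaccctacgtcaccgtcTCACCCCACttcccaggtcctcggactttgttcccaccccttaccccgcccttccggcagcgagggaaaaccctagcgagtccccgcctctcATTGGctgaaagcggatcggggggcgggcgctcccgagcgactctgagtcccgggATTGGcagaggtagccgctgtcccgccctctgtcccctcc
Idi1: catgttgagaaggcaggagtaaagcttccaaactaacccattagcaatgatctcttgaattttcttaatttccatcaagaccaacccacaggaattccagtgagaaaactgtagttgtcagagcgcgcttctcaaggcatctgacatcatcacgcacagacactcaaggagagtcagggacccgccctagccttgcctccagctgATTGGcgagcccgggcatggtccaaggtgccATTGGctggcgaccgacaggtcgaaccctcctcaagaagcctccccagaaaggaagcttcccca
Cyp51: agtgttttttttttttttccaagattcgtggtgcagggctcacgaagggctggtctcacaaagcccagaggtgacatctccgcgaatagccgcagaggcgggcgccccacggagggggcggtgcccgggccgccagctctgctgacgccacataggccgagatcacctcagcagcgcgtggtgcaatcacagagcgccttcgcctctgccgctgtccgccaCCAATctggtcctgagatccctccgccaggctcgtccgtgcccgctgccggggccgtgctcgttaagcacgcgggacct
The Hmgcs1 window held TCACCCCAC, beginning 137 bases before the start site, and 4 CCAAT motifs. The Idi1 window held 2 CCAAT motifs and the Cyp51 window 1, and neither held TCACNCCAC. The table also has Lss and Insig1, each with 1 CCAAT motif and without TCACNCCAC. It matched 5 of the 7 members, which leaves Fdps and Sqle. The GC box GGGCGG, left in lower case, was found 3 times in Hmgcs1, 3 times in Insig1, 2 times in Lss and once each in Idi1 and Cyp51. Over all 32851 promoters of the same length, 1.24% held TCACNCCAC, 37.4% held CCAAT and 35.7% held GGGCGG. These matches are letters in a window and say nothing of binding. Other forms of the sterol regulatory element were not searched for, so a window without TCACNCCAC is not shown to lack one.

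The libraries were shallow and unequal, and this bears on every value below. Protein-coding genes held an estimated 25233 to 556401 fragments per library, and at the high doses 174904 to 556401. Annotated genes held 56.9 to 65.5% of the fragments at the high doses, against 8.52, 34.0 and 46.6% in vehicle replicates 2, 4 and 5. Over 20% of the fragments lay between genes in vehicle replicates 2 and 5 and in extract low dose replicate 26, so these 3 libraries stood apart. Vehicle replicate 4 stood apart too, with summed B and plasma cell markers at 391 FPKM (at most 20.7 in any other library), the highest sum of adipocyte markers (366) and 57.7% of its fragments in assembled loci inside genes that match no whole gene and are not mainly exonic. A vehicle library listed 27.1 to 51.2% of the tested genes at 0, and a high-dose library 5.74 to 13.1%. All 7 epithelial markers had a value in every library and at most 1 was listed at 0 in any. Their summed FPKM (a read density per transcript length and library size) was 42.7 to 446 in the vehicle, 774 to 1080 in the cymopol high dose, 422 to 822 in the extract high dose, 190 to 769 in the cymopol low dose and 34.4 to 444 in the extract low dose. The summed epithelial markers were thus higher in the cymopol high dose than in every vehicle and low-dose library, while the extract high dose overlapped those groups. Depth was mostly higher at the high doses, but vehicle replicate 4 (226531) and cymopol low dose replicate 35 (183362) exceeded extract high dose replicate 21 (174904). Several of the sterol genes were higher at the high doses too, and the part of depth and of these markers in the results was not tested. The 5 markers of hepatocytes, cells that also make cholesterol, summed to 0, 0 and 2.23 FPKM in the vehicle, to 5.78, 27.2 and 549 in the cymopol high dose and to 1.6, 38.2 and 9.05 in the extract high dose. The 549 is Apoa1 alone, with Alb at 0 in that library, and Ttr was at 0 in all 15. Their part was not tested either. In whole tissue, fewer cells of a type and less RNA per cell cannot be told apart.

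In the cymopol high dose, 5 of the 6 tested members had a mean above that of the vehicle, as 79.5% of all genes did. Insig1 is not counted, since its difference rounds to 0 (mean log2 level 2.72 against 2.71). Cyp51 and Hmgcs1 were farthest apart and without overlap between the groups. None passed the test (limma, Benjamini-Hochberg adjusted over 11496 genes; smallest adjusted p of a member 0.243), where 0.0174% of all genes did, and 0 members passed in a voom fit of estimated fragments. At an unadjusted p under 0.05, 3 members (Hmgcs1, Idi1 and Cyp51) were higher and 12.5% of all genes were, and 2 members were higher without overlap, as were 19.5% of all genes. Idi1 reached an FPKM of 1 only in high-dose libraries and so passed the filter through them, which means these counts describe the members and support nothing. The median difference of the 6 members was 1.33 on the log2(FPKM + 1) scale, and that of all genes tested was 0.81. At the extract high dose, 4 of 6 means were above the vehicle (77.1% of all genes were) with a median of 0.52, which is less than the 0.71 of all genes. Since all genes were shifted against the vehicle, the leading differences are also given below less the median of all genes.

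**Figure D1:**
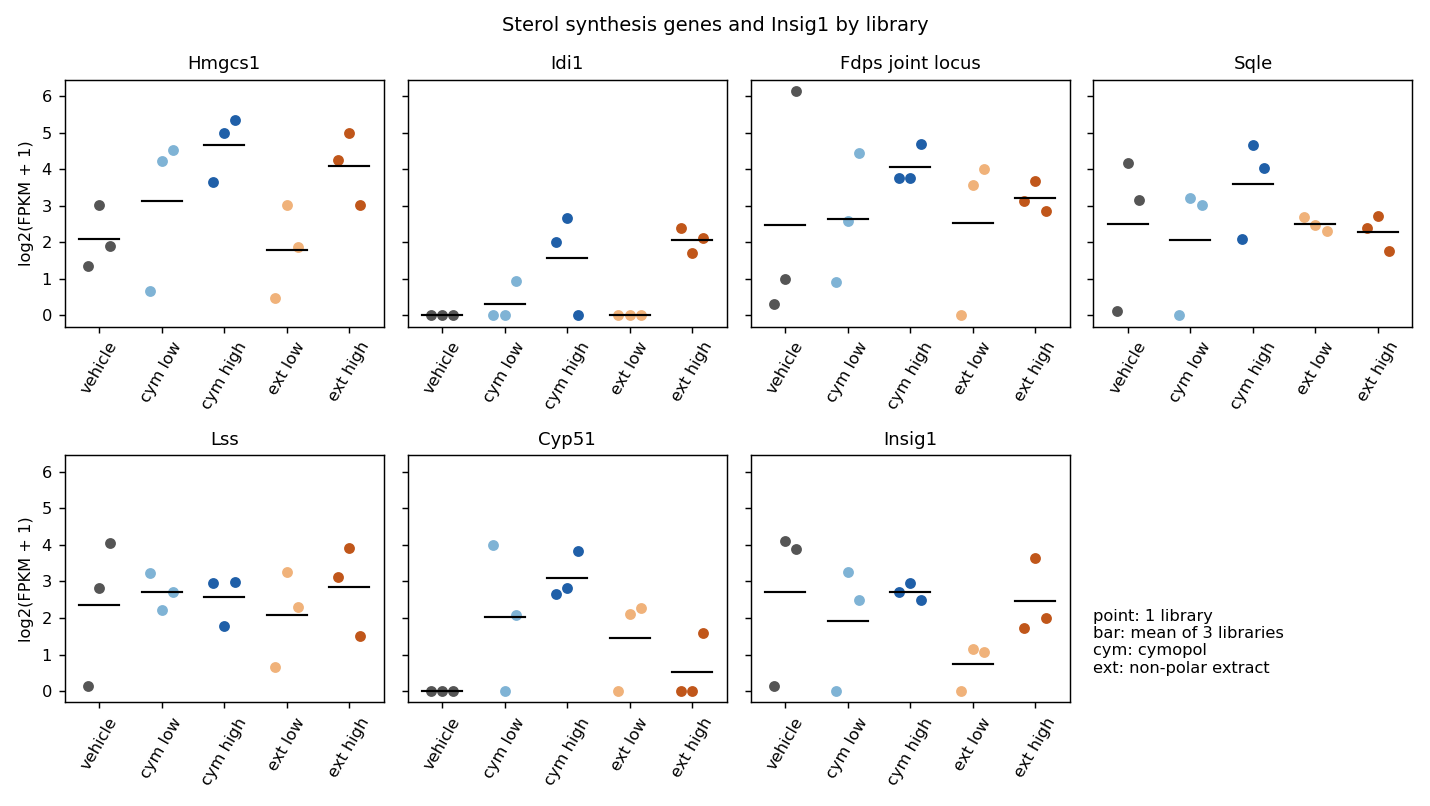
Level of each member in each library, as log2(FPKM + 1) on the vertical axis, with 1 point per library, a bar for the mean of 3 libraries and 1 panel per gene (Fdps as the locus it shares with a neighbour). Cyp51 was at 0 in all 3 vehicle libraries and at 2.67 to 3.82 in the cymopol high dose, while Idi1 was above 0 in all 3 libraries of the extract high dose and in none of the vehicle.

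Hmgcs1 (ENSMUSG00000093930, chr13:119690379-119708260, plus strand, GRCm38) was the best measured member, with 3 to 290 estimated fragments per library. Its FPKM was 1.56, 7.13 and 2.74 in vehicle replicates 2, 4 and 5. It was 11.6, 30.5 and 39.6 in cymopol high dose replicates 11, 12 and 14. The vehicle values were read under the Ensembl identifier and the cymopol high dose values from assembled loci. The part of the type of entry in the difference was not tested. All 3 cymopol high dose libraries lay above the highest vehicle library in FPKM. Estimated fragments ranked otherwise, at 161, 104 and 79.6 in replicates 11, 12 and 14. Vehicle replicate 2 held 21 of 51766 fragments in protein-coding genes, a larger share than replicate 12 (104 of 342028) or 14 (79.6 of 302879). The shares of vehicle replicates 4 (39.5 of 226531) and 5 (3 of 25233) were smaller than those of all cymopol high dose libraries. The difference of the means was 2.56 ± 1.19 (SE; 95% interval 0.15 to 4.98) on the log2(FPKM + 1) scale, with a limma p of 0.0381 and an adjusted p of 0.356. Less the median of all genes it was 1.76. It was 1.42 with median-of-ratios scaling and 0.73 in a voom fit of estimated fragments.

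At the extract high dose, Hmgcs1 was at 17.9, 30.6 and 7.09 FPKM in replicates 21, 23 and 25. Replicates 21 and 23 were read from assembled loci and replicate 25 under the Ensembl identifier. Replicate 25 lay just under the highest vehicle library, so the groups overlapped, and the difference of 1.99 ± 1.19 did not pass the test (adjusted p = 0.515). The cymopol low dose gave 0.606, 17.6 and 22.1 FPKM in replicates 33, 34 and 35, which is 1 library under and 2 over all vehicle libraries. The extract low dose gave 0.406, 7.13 and 2.64 FPKM in replicates 26, 27 and 29, with replicate 26 below all vehicle libraries and replicate 27 level with the highest of them. Among the low doses, cymopol replicates 33 and 34 and extract replicates 27 and 29 were read under the identifier. Cymopol replicate 35 and extract replicate 26 were read from assembled loci. The part of the type of entry was not tested here either. By their medians the groups stood in the order cymopol high dose (30.5), extract high dose (17.9), cymopol low dose (17.6), vehicle (2.74) and extract low dose (2.64), and every pair of neighbours in that order overlapped. The antisense gene Gm48342 overlaps Hmgcs1, and whether strand was used in the quantification is not given in the sources used here.

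Idi1 (ENSMUSG00000058258, chr13:8885501-8892451, plus strand), the isopentenyl diphosphate isomerase, was measured only at the limit of detection. It was listed at 0 in all 3 vehicle libraries, in all 3 extract low dose libraries and in cymopol low dose replicates 33 and 34. It was at 4.2, 2.25 and 3.35 FPKM with the extract and at 3.04, 5.35 and 0 FPKM with cymopol at their high doses. Cymopol low dose replicate 35 was at 0.912 FPKM. No library held more than 4.73 estimated fragments of it. The vehicle values were read under the Ensembl identifier and those of both high-dose groups from assembled loci. Some zeros also came from assembled loci, as in cymopol high dose replicate 14. The part of the type of entry in the differences was not tested.

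Idi1 had an FPKM of 1 or more only in high-dose libraries, so it entered the test through those groups alone. Against the vehicle, the extract high dose differed by 2.07 ± 0.70 (limma, adjusted p = 0.315), or 1.35 less the median of all genes. The cymopol high dose differed by 1.56 ± 0.70 (limma, adjusted p = 0.347), with 1 of its 3 libraries at 0 like the vehicle. The second difference turned to -0.56 in a fit of the estimated fragments, and the first shrank to 0.44 there. A value listed at 0 in such shallow libraries does not show that the gene was silent.

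Fdps (ENSMUSG00000059743, chr3:89093588-89101959, minus strand), farnesyl diphosphate synthase, was covered in all 15 libraries by 1 assembled locus (chr3:89081939-89101959) that also holds the neighbouring gene Rusc1 (chr3:89083981-89093311) and matches the read-through gene Gm43738. Its value is that of the joint locus and not of Fdps. The joint locus was at 0.232, 0.998 and 69.5 FPKM in the vehicle, and 12.6, 12.5 and 24.6 in the cymopol high dose. With the extract at its high dose it was at 7.78, 11.8 and 6.28 FPKM. It was at 0.888, 4.93 and 20.6 FPKM in the cymopol low dose and 0, 10.8 and 15.1 in the extract low dose. The vehicle libraries spanned the widest range and enclosed both high-dose groups, and the 69.5 rests on 7.99 estimated fragments. The 4 differences from the vehicle were 1.59 ± 1.33, 0.75 ± 1.33, 0.16 ± 1.33 and 0.04 ± 1.33 in the order cymopol high, extract high, cymopol low and extract low dose, with the smallest adjusted p at 0.594.

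Sqle (ENSMUSG00000022351, chr15:59315077-59331192, plus strand), squalene epoxidase, prepares squalene for ring closure. It was at 0.0918, 17 and 7.98 FPKM in the vehicle and at 3.25, 24.2 and 15.2 in the cymopol high dose. The ranges overlapped, and the difference was 1.10 ± 1.16 (adjusted p = 0.673). The lowest vehicle value came from replicate 2, with under 1 estimated fragment. Without that library and the others with over 20% intergenic fragments, the difference was -0.58, so the sign rested on them. The extract high dose was at 4.23, 5.56 and 2.4 FPKM and the extract low dose at 5.42, 4.56 and 3.97, both inside the range of the vehicle. The cymopol low dose was at 0, 8.19 and 7.14 FPKM.

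Lss (ENSMUSG00000033105, chr10:76531588-76557138, plus strand), which closes the sterol rings to lanosterol, had the thinnest support after Idi1. Of its 15 values 8 rest on under 1 estimated fragment and 13 on under 5. Its FPKM was 0.113, 6.08 and 15.7 in the vehicle, and 6.71, 2.44 and 6.95 in the cymopol high dose. With the extract at its high dose it was 7.78, 14.1 and 1.87. It was 8.39, 3.67 and 5.49 in the cymopol low dose and 0.567, 8.61 and 3.95 in the extract low dose. All 4 treated groups lay within the range of the vehicle. The differences from it ran from -0.27 to 0.51, each with an SE of 1.13 and an adjusted p of 0.874 or more. The antisense gene 4930483K19Rik overlaps Lss.

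Cyp51 (ENSMUSG00000001467, chr5:4081145-4104746, minus strand), the lanosterol demethylase, set the cymopol high dose apart from the vehicle most clearly among the members, but not from the cymopol low dose. It was listed at 0 in all 3 vehicle libraries. In the cymopol high dose it was at 5.36, 6.1 and 13.1 FPKM, from 32.9, 17.7 and 71.2 estimated fragments. The extract high dose was at 0, 0 and 2.02 FPKM in replicates 21, 23 and 25. Replicate 23 is the deepest library of the series, and the part of depth in the zeros was not tested. Every cymopol high dose library was thus above every vehicle and every extract high dose library. The low doses were mixed, with 15.1, 0 and 3.23 FPKM for cymopol and 0, 3.32 and 3.84 FPKM for the extract.

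The Cyp51 difference between the cymopol high dose and the vehicle was 3.10 ± 0.99 (95% interval 1.1 to 5.11) on the log2(FPKM + 1) scale, with a limma p of 0.00337 and an adjusted p of 0.243. Less the median of all genes it was 2.3, the highest of the 6 members. It ranged from 2.07 to 6.26 over the 16 alternatives, with adjusted p-values of 0.0676 to 0.651, so it stayed positive and did not pass the test under any of them. Between the cymopol and the extract at the high dose, Cyp51 differed by 2.57 ± 0.99 (95% interval 0.57 to 4.58, adjusted p = 1). The cymopol low dose differed from the vehicle by 2.03 ± 0.99 (adjusted p = 0.872), with the groups overlapping, since replicate 34 was at 0 as well. It was 1.04 without replicate 33 and 3.04 without replicate 34.

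The zeros of Cyp51 are given beside its surroundings. Akap9, on the plus strand, overlaps its end. In the 7 libraries with Cyp51 at 0, the locus that holds Akap9 was at 0.309, 22.6 and 86.8 FPKM (vehicle), 30.6 and 13.6 (extract high dose), 1.18 (extract low dose) and 10.4 (cymopol low dose). In the 8 libraries with Cyp51 above 0 it was at 1.1 to 11.4 FPKM. Vehicle replicate 4 also held 2 short assembled loci in introns of Cyp51, of 205 bp at 239 FPKM and 256 bp at 215 FPKM, while the gene was listed at 0. Extract high dose replicate 23 held another of 250 bp at 24.6 FPKM, from 13 estimated fragments, with the gene at 0 as well. Fragments from the Cyp51 region were therefore present in both libraries, and the part of the neighbour or of unspliced RNA in the zeros was not tested.

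Insig1 (ENSMUSG00000045294, chr5:28071363-28078662, plus strand), the sterol-sensing member and the usual feedback target of SREBP, did not share the pattern of Cyp51. It was at 0.0956, 16.2 and 13.9 FPKM in the vehicle and at 5.52, 6.82 and 4.57 in the cymopol high dose, which lies between the vehicle libraries. The difference was 0.00 ± 1.12 (95% interval -2.27 to 2.28, adjusted p = 1). The extract high dose was at 2.33, 11.5 and 2.98 FPKM (difference -0.26 ± 1.12, adjusted p = 0.943). The extract low dose was lowest, at 0, 1.21 and 1.1 FPKM, with a difference from the vehicle of -1.97 ± 1.12 (adjusted p = 1). Those extract low dose values rest on only 0, 0.871 and 0.294 estimated fragments, which is at the limit of detection. The cymopol low dose was at 0, 8.55 and 4.6 FPKM. Intervals of this width do not show that Insig1 was the same in these groups.

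**Figure D2:**
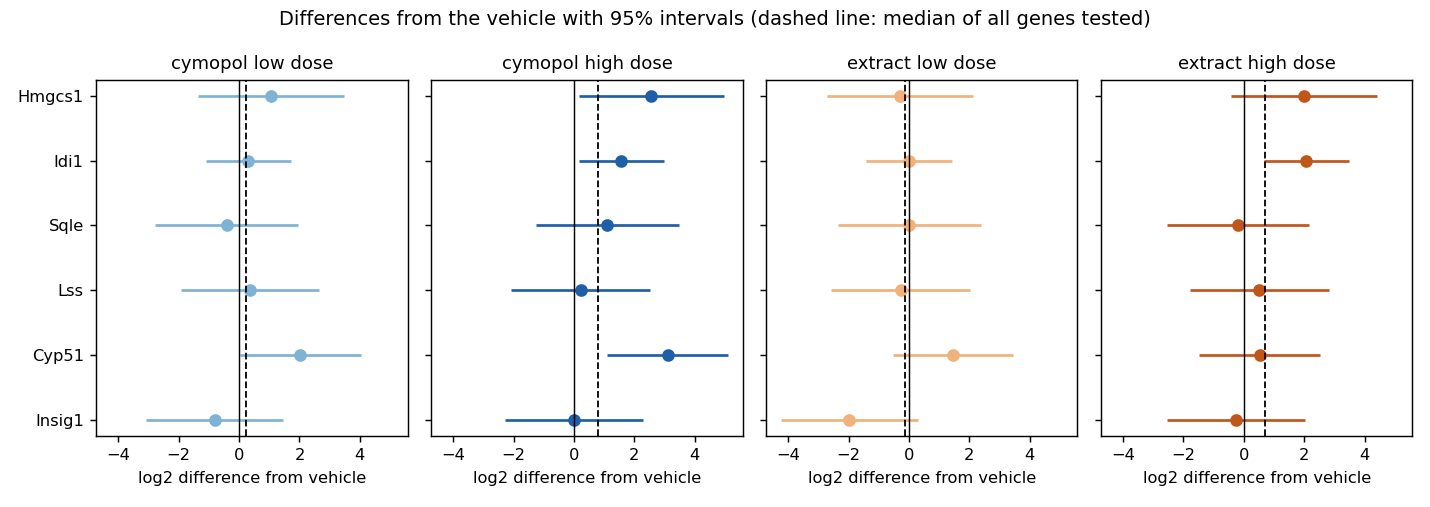
Difference of each treated group from the vehicle on the log2(FPKM + 1) scale (horizontal axis) for the 6 tested members, with points for the fitted difference, lines for 95% intervals and a dashed line for the median of all genes tested. In the cymopol high dose the intervals of Hmgcs1 (0.15 to 4.98), Idi1 (0.15 to 2.97) and Cyp51 (1.1 to 5.11) lie above 0, and Insig1 is centred on 0. Idi1 passed the filter only through high-dose libraries.

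At the low doses no tested member passed against the vehicle, and no gene at all did (0% in both comparisons). For the cymopol low dose 4 of 6 members were above 0 (58.9% of all genes were), their median was 0.34 and that of all genes was 0.23. Cyp51 alone had an unadjusted p under 0.05, as did 3.89% of all genes in the same direction, and 0 members were higher without overlap, as 3.89% of all genes were. For the extract low dose only Cyp51 was above 0 after rounding (1.46 ± 0.99), against 41.8% of all genes. Sqle and Idi1 rounded to 0 there. The median of the members equalled that of all genes at -0.14. There 0 members had an unadjusted p under 0.05 (1.11% of all genes were higher at that level), and 0 were higher without overlap (1.23% of all genes). For the extract high dose none passed either, where 0.0087% of all genes did. There Idi1 was the only member higher without overlap, while 19.3% of all genes were, and the only one with an unadjusted p under 0.05, as were 10.6% of all genes, but it passed the filter only through high-dose libraries. The 4 comparisons share the same 3 vehicle libraries, so their values are not independent of each other.

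Between the doses, 5 of 6 members had a higher mean in the cymopol high dose than in the low dose, as 76.8% of all genes did, with a median of 1.16 against 0.60 for all genes. None passed the test (smallest adjusted p of a member 0.874), where 0.0087% of all genes did. In addition 0 members had an unadjusted p under 0.05 or were higher without overlap, against 5.35% and 9.75% of all genes. Between the doses of the extract, 4 of 6 had a higher mean at the high dose, as 88% of all genes did, with a median of 1.25 against 0.89. None passed there (smallest adjusted p of a member 0.638), where 0.0087% of all genes did, and 2 members were higher without overlap, as were 20.9% of all genes. These were Idi1 (2.07 ± 0.70) and Insig1 (1.72 ± 1.12), whose extract low dose values rest on only 0, 0.871 and 0.294 estimated fragments. Idi1 was also the only one with an unadjusted p under 0.05 (7.09% of all genes were higher at that level). It passed the filter only through high-dose libraries, so neither count supports anything. Cyp51 went the other way there, at -0.93 ± 0.99.

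Between the agents, doses were in mmol/kg for cymopol and in g/kg for the extract, so they cannot be matched. At the high doses 4 of 6 members were above 0 in cymopol less extract, as 57.5% of all genes were, with a median of 0.42 against 0.11. None of them passed (0.0174% of all genes did), and 1, Cyp51, had an unadjusted p under 0.05, as did 0.957% of all genes in that direction. Cyp51 alone was higher in cymopol without overlap, as were 4.49% of all genes. The joint locus of Fdps did not overlap either, at 12.5 to 24.6 FPKM against 6.28 to 11.8, with a difference of 0.84 ± 1.33 (adjusted p = 1). At the low doses 5 of 6 members were above 0 (68.7% of all genes were) with a median of 0.61 against 0.39 for all genes. None passed (0% of all genes did), 0 had an unadjusted p under 0.05 (3.02% of all genes were higher at that level) and 0 were higher without overlap (4.58% of all genes). Whether the step from low to high dose differed between the agents was fitted as a separate term. For Cyp51 it was 2.01 ± 1.39 (adjusted p = 1), for Sqle 1.71 ± 1.65, and for the other 4 members -0.77 to -0.93, none of them past the threshold.

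The 6 tested members did not vary as 1 block. Over the 15 libraries the median Pearson correlation of their 15 pairs was 0.24. Sqle and Insig1 were most alike (0.71), followed by Hmgcs1 and Insig1 (0.65) and Hmgcs1 and Sqle (0.62), while Cyp51 and Insig1 gave -0.23. Hmgcs1 also followed the log2 number of estimated fragments in protein-coding genes (0.82), as did Idi1 (0.68) and Insig1 (0.51), against a median of 0.50 over all genes. Cyp51 (0.20) and Lss (0.23) followed it least. These are descriptions, and all points share the depth of their libraries.

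**Figure D3:**
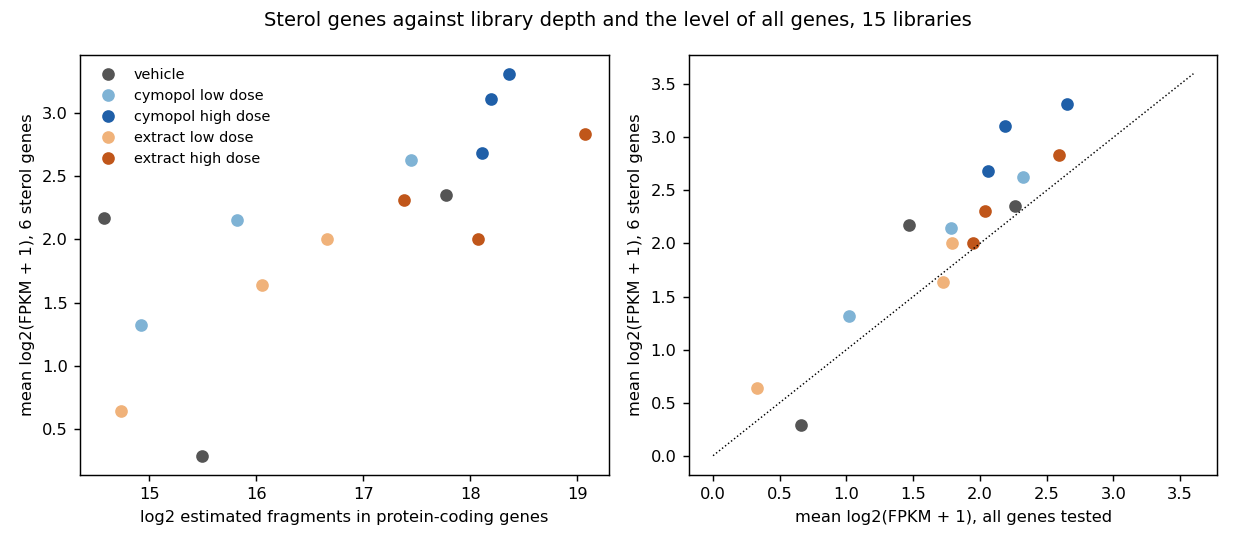
Mean log2(FPKM + 1) of the 6 tested members in each of 15 libraries (vertical axes), against the log2 estimated fragments in protein-coding genes (left) and against the mean of all genes tested (right, with a dotted line of equality), coloured by group. The members' mean rises with depth and with the level of all genes, and the 3 cymopol high dose libraries lie 0.62 to 0.92 above the line.

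The mean log2 level of the members less that of all genes in the same library was 0.62, 0.67 and 0.92 in the cymopol high dose. It was -0.37, 0.09 and 0.70 in the vehicle, 0.27, 0.23 and 0.06 in the extract high dose, 0.30, 0.37 and 0.30 in the cymopol low dose and 0.31, 0.21 and -0.08 in the extract low dose. Vehicle replicate 5 thus lay within the range of the cymopol high dose, and vehicle replicate 2 was lowest of all. Among 11490 other genes, the 5 whose levels followed the mean of the scaled member levels most closely were Rplp0 (Pearson r 0.96, Spearman rho 0.89), a ribosomal protein, Mff (0.95, 0.90), a receptor of mitochondrial fission, Ergic3 (0.94, 0.85), a protein of the early secretory route, Cdh17 (0.94, 0.87), the cadherin of intestinal epithelium, and Ctdsp2 (0.94, 0.86), a phosphatase. None is a sterol gene, and Cdh17 is one of the 7 epithelial markers above.

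The rest of the pathway was read from 4 further lists. Of 15 other synthesis genes 13 were tested, and none passed in any of the 4 comparisons with the vehicle. In the cymopol high dose 10 of 13 were above 0 (79.5% of all genes were), 5 were higher without overlap (19.5% of all genes) and the median was 1.46, against 0.81 for all genes. Pmvk, phosphomevalonate kinase, was listed at 0 in all vehicle libraries and was at 4.49, 14.5 and 12.7 FPKM with cymopol and 5.38, 3.88 and 2.5 FPKM with the extract at their high doses. Both high-dose groups thus lay above the vehicle, by 3.39 ± 0.95 (adjusted p = 0.19) and 2.26 ± 0.95 (adjusted p = 0.382). Msmo1, a sterol methyl oxidase that acts later in the pathway than Cyp51, was at 0.564, 0 and 8.55 FPKM in the vehicle. Msmo1 was at 7.95, 33.2 and 21.3 in the cymopol high dose (2.95 ± 1.25, adjusted p = 0.327, with overlap). Its differences in the extract high dose (2.60 ± 1.25, adjusted p = 0.42) and the cymopol low dose (2.59 ± 1.25, adjusted p = 0.872) were nearly as large, and its highest value, 80.1 FPKM, was in cymopol low dose replicate 35. Acat2, which makes acetoacetyl-CoA at the start of the pathway (1.46 ± 0.65, adjusted p = 0.347), and Dhcr7, the reductase of its last step (2.51 ± 1.23, adjusted p = 0.374), followed. Dhcr7 differed by as much in the cymopol low dose (2.48 ± 1.23, adjusted p = 0.872).

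Fdft1, squalene synthase, was at -0.63 ± 1.06 in the cymopol high dose and -1.66 ± 1.06 in the extract high dose. In the extract high dose 10 of the 13 synthesis genes were above 0 (77.1% of all genes were) with a median of 1.08 against 0.71 for all genes. At the low doses the medians were 0.09 (cymopol) and 0.29 (extract), and no gene of the list was free of overlap.

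**Figure D4:**
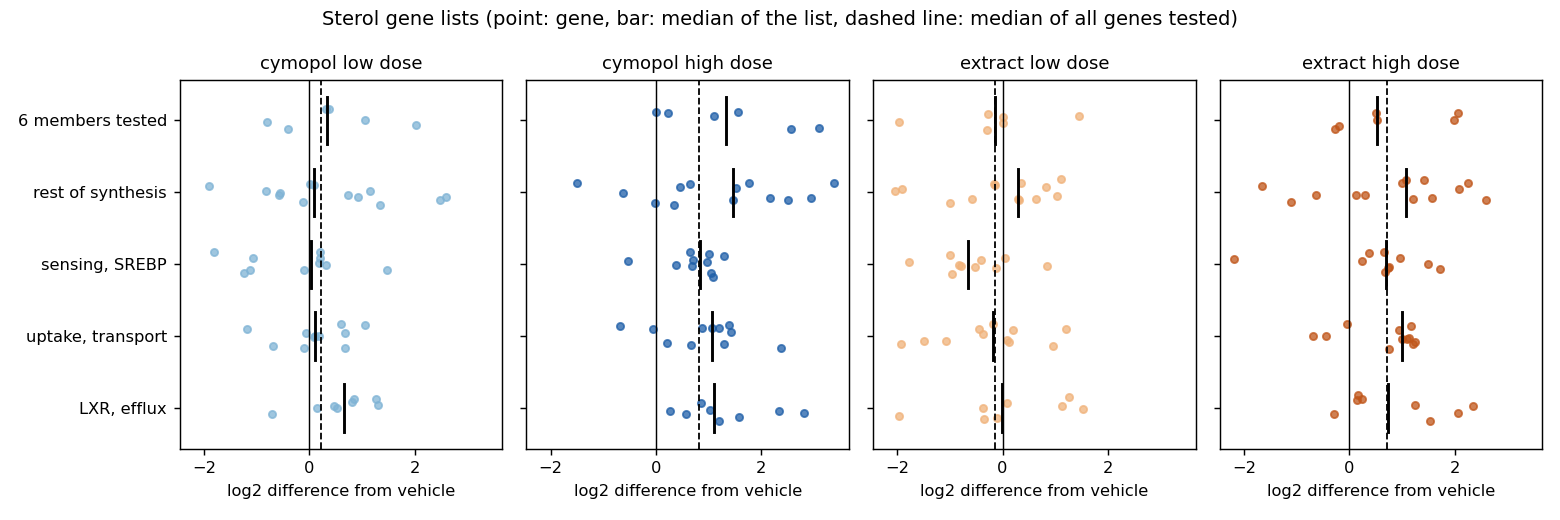
Difference from the vehicle on the log2(FPKM + 1) scale (horizontal axis) for every tested gene of the 6 members and of 4 further lists, with 1 point per gene, a bar for the median of the list and a dashed line for the median of all genes tested, in 1 panel per treated group. In the cymopol high dose the medians of all 5 sets lie between 0.84 and 1.46, beside 0.81 for all genes.

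Among the genes of sterol sensing and SREBP processing, 10 of 11 were tested and none passed. Their median was 0.84 in the cymopol high dose and 0.70 in the extract high dose, each within 0.03 of all genes. Srebf2, which encodes SREBP2 itself, was at 0.0641, 18.7 and 12.5 FPKM in the vehicle, 9.02, 24.9 and 15 with cymopol and 17.2, 34.2 and 9.04 with the extract at their high doses. These ranges overlapped (1.29 ± 1.22, adjusted p = 0.635, and 1.50 ± 1.22, adjusted p = 0.63). Srebf1, which drives fatty acid genes, was at 5.2, 68.7 and 40.7 FPKM in the vehicle and 1.58, 5.34 and 10.8 in the extract high dose, a difference of -2.18 ± 1.28 (adjusted p = 0.504) with overlap. Rnf139, a ubiquitin ligase of the sterol response, was at 0 in the vehicle, at 0.222, 1.52 and 1.46 FPKM in the cymopol high dose and at 0.852, 2.14 and 0.256 with the extract at its high dose (0.97 ± 0.52 for cymopol, adjusted p = 0.419, and 0.96 ± 0.52 for the extract, adjusted p = 0.48). It reached an FPKM of 1 only in high-dose libraries, so it entered the test through those groups alone, and at the low doses it was above 0 in 2 of 6 libraries, at 0.114 and 0.468.

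Of the 13 uptake, transport and esterification genes 11 were tested, and none passed. Their medians were 1.06 (cymopol high dose) and 1.01 (extract high dose), against 0.81 and 0.71 for all genes. Stard3, which moves cholesterol at late endosomes, was at 0.655, 0 and 2.23 FPKM in the vehicle and 8.76, 6.26 and 9.66 in the cymopol high dose (2.38 ± 1.06, adjusted p = 0.345). It is 1 of 3 genes among these 11 that were higher without overlap there, as 19.5% of all genes were.

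The LXR and efflux genes act when sterol is plentiful, opposite to SREBP2. Of 10 listed 8 were tested, none passed, and all 8 were above 0 in the cymopol high dose (79.5% of all genes were) with a median of 1.10. Nr1h3, which encodes LXR alpha, was at 0, 0.975 and 0 FPKM in the vehicle, 8.55, 5.01 and 10.9 with cymopol and 3.23, 7.68 and 2.88 with the extract at their high doses. Both high-dose groups lay above the vehicle (2.81 ± 1.04, adjusted p = 0.295, and 2.06 ± 1.04, adjusted p = 0.442). Abcg5, which returns sterol to the lumen, was at 0 in the vehicle, and with the extract at its high dose it was at 1.73, 21.7 and 1.14 FPKM (2.35 ± 1.02, adjusted p = 0.386). Synthesis genes (median 1.46) and LXR and efflux genes (median 1.10) thus both lay above 0 in the cymopol high dose, beside 0.81 for all genes.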

How the data were processed

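RNA of the large intestine was depleted of ribosomal RNA from 90 ng of total RNA and made into libraries with a low-input kit, per the labels' protocols. The submitters' processing notes name STAR 2.4.0j and the build GRCm38.p4. The deposited values are FPKM with a lower and an upper bound, made by the authors, 1 table per library, with the columns of a Cufflinks gene table, per the file headers. Neither the quantifier's version nor any scaling between libraries is stated in the labels.

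The tables mix annotated genes with loci assembled per library. A locus was given to a gene (GENCODE M21) when the match was reciprocally best and they shared 0.5 or more of their joint span. Fragment numbers are approximate and come from how far the deposited bounds lie from each FPKM. Values were analysed as log2(FPKM + 1) over genes that had a value in every one of 15 libraries and reached an FPKM of 1 in 3 or more. All 15 libraries were fitted with 1 mean per group (limma 3.58.1, R 4.3.3, intensity trend), in 8 two-sided comparisons. The threshold was 0.05 after Benjamini-Hochberg adjustment. Differences are on the log2(FPKM + 1) scale, which understates changes of low genes. The smallest p of an exact test on 3 and 3 libraries is 0.1. The script was tested on simulated data. The members and the lists were chosen with earlier results of these data known. All 7 members are named, and up to 4 genes per list with the smallest p against the vehicle; Fdft1 was named after its values were seen, and some genes of the lists are not reported here by name.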

Additional observations from a re-analysis of the deposited data

Results flagged for a closer look

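Short assembled loci that belong to no comparison lay inside introns of Hmgcs1 in 3 treated libraries and in none of the vehicle libraries. They were a locus of 218 bp at 37.4 FPKM in cymopol high dose replicate 11, a locus of 432 bp at 34.6 FPKM in cymopol high dose replicate 14 and a locus of 134 bp at 332 FPKM in extract low dose replicate 29. They rest on 9.59, 25.8 and 11.9 estimated fragments, and short loci reach a high FPKM from few fragments. They were not added to Hmgcs1. Introns of Insig1 held such loci too, and 1 of them was in a vehicle library. It was of 278 bp at 200 FPKM in vehicle replicate 4, from 58.2 estimated fragments, where Insig1 itself was at 16.2 FPKM. The other was of 337 bp at 25.7 FPKM in cymopol high dose replicate 14, from 14 estimated fragments.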

How the results depend on the processing

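No paired analysis was possible because the groups share no replicate numbers. In all 128 recomputed counts, over 16 alternatives in each of 8 comparisons, 0 members passed the test, and the lowest adjusted p of any member was 0.0676 (Cyp51, cymopol high dose against vehicle, voom on estimated fragments), while the number of all genes called ran from 0 to 350. Idi1 could not be tested under the stricter filter. Of 427 recomputed member differences 386 kept their sign or were at 0 and 41 reversed, in 13 of 27 differences. A difference that rounds to 0 in the main fit could not reverse by this count. This holds for Insig1 in the cymopol high dose against the vehicle, which ran from -1.39 to 0.7 over the alternatives. It also holds for Sqle (-1.78 to 1.34) and Idi1 (-0.13 to 0) in the extract low dose against the vehicle. The signs of Cyp51, Hmgcs1 and Idi1 at the high doses against the vehicle held throughout, apart from Idi1 in the cymopol high dose (voom) and Cyp51 in the extract high dose, which reversed under voom and was at 0 without extract high dose replicate 25. The median of all genes in the cymopol high dose moved from 0.81 to 0.24 with median-of-ratios scaling and to -0.04 with quantile normalization.

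In the cymopol high dose against the vehicle, Idi1 turned from 1.56 to -0.56 (voom), Sqle from 1.10 to -0.58 (without the libraries with over 20% intergenic fragments) and Lss from 0.23 to -0.20 (median-of-ratios), -0.39 (quantile), -0.10 (array weights), -0.96 (voom) and -0.25 (without those libraries). In the cymopol low dose, Idi1 turned from 0.31 to -0.17 (voom) and Lss from 0.37 to -0.17 (array weights), -0.20 (voom) and -0.11 (without those libraries). In the extract high dose, Sqle turned from -0.20 to 0.40 and Insig1 from -0.26 to 0.32 (pseudocount 0.1), Lss from 0.51 to -0.27 (array weights) and -0.48 (voom), and Cyp51 from 0.53 to -1.14 (voom). In the extract low dose, Hmgcs1 turned from -0.30 to 0.01 (median-of-ratios), 0.21 (quantile), 0.42 (array weights) and 0.64 (voom), and Lss from -0.27 to 0.06 (pseudocount 0.1), 0.64 (median-of-ratios) and 0.67 (quantile). The cause of these reversals was not tested.

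Leaving out 1 library at a time gave Sqle -0.08 to 1.94 and Lss -0.87 to 1.08 in the cymopol high dose, and Sqle -1.59 to 0.62, Lss -0.73 to 1.23 and Insig1 -2.09 to 0.16 in the cymopol low dose. It gave Sqle -1.38 to 0.64, Lss -0.59 to 1.37 and Insig1 -1.55 to 0.44 in the extract high dose, and Hmgcs1 -0.91 to 0.35 and Lss -1.37 to 0.58 in the extract low dose. Without the 3 libraries with over 20% intergenic fragments, the vehicle is 1 library, replicate 4, that is assumed to vary like the other groups. Hmgcs1 in the cymopol high dose was then 1.63 (adjusted p = 0.599) and Cyp51 3.10 (adjusted p = 0.305). Without vehicle replicate 4 they were 3.03 (adjusted p = 0.222) and 3.10 (adjusted p = 0.192). Depth limits Idi1 and Lss most, since nearly all their values rest on under 5 estimated fragments.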
